A study of Mus musculus with 7 samples.

Results

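The killer cell lectin-like receptor (Klr) genes encode C-type lectin-like receptors of natural killer (NK) cells, most of them in the NK gene complex on mouse chromosome 6. Accessible chromatin at 8 of them was examined in CD4+ T cells sorted from mice infected with N. brasiliensis, a helminth whose larvae pass through the lung. The genes were Klrd1, Klrc1, Klrc2, Klre1, Klrk1, Klrb1c, Klrb1f and Klrg1, and each was represented by every ATAC-seq region that overlapped its GENCODE gene body or the 10 kb on either side, with a region in reach of more than 1 of the genes given to the nearer one. This rule took 57 of the 113820 regions in the table. There were 15 at Klrg1, 10 at Klrb1f, 8 at Klrb1c, 8 at Klre1, 7 at Klrk1, 4 at Klrc1, 3 at Klrd1 and 2 at Klrc2. The genes were chosen by accessibility values of these same libraries, from regions that were more accessible in IFNγ+ cells. The differences between populations at their regions are therefore a description. Calls from a fit of the whole table are counted beside the share of all regions called, and are no independent test of these genes.

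All libraries came from C57BL/6 mice on day 8 after 500 L3 larvae were given under the skin, with 50000 CD4+ T cells per library. LN IL-4+ cells (n = 2) and lung IL-4+ cells (n = 3) were GFP+ cells of IL-4-4get reporter mice, in which GFP marks cells that transcribed Il4, from the lung-draining lymph node (LN) or the lung. Lung IFNγ+ cells (n = 2) were YFP+ cells of IFN-gamma-Great reporter mice, in which YFP marks transcription of Ifng. Every animal carried a reporter and was infected, so that cytokine and reporter line cannot be told apart between the lung populations, and tissue is part of every comparison with LN cells. The study counted mice as replicates within a single experiment. The labels do not tie libraries to animals, so LN and lung IL-4+ libraries may share animals, and the errors below measure the spread between libraries only. The sort kept live CD3ε+ CD4+ cells and gated out cells with NK1.1, CD8, B220, CD11c, CD11b or Ter119 on their surface. The values are log2 transposase insertions per kilobase per 1000000 insertions (log2 density), and the text also uses the density itself and its sum over the regions of a gene. A signal present in few cells and a weak signal in all cells cannot be told apart in these bulk libraries.

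Most Klr receptors act in pairs that either inhibit or activate the cell. CD94, the product of Klrd1, pairs with NKG2A (Klrc1) to form an inhibitory receptor and with NKG2C (Klrc2) to form an activating one, and both bind the nonclassical MHC molecule Qa-1. NKG2D (Klrk1) is an activating receptor without CD94 that binds stress-induced ligands and also costimulates T cells. KLRE1 (Klre1) forms heterodimers with the KLRI proteins. NKR-P1C (Klrb1c) is the NK1.1 antigen of C57BL/6 mice, NKR-P1F (Klrb1f) is a related receptor for Clec2 proteins, and KLRG1 (Klrg1) is an inhibitory cadherin receptor found on differentiated effector T cells as well as on NK cells. Region names below give the gene and the order of the region along chromosome 6, as in Klrc1_4, and region positions are those of the table (GRCm38/mm10).

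Sequences are shown for 6 regions, which are the 4 called between the lung populations, the start of Klrd1 and the region downstream of Klrg1 that was called in both lung populations against LN cells. They were read from the GRCm38 reference (plus strand, counted from 1) and were cut to exon-free stretches. The stretches were chr6:129680377-129680676 upstream of Klrc1, chr6:129678974-129679094 directly upstream of the Klrc1 start, chr6:129627526-129627825 upstream of Klrk1, chr6:128793008-128793307 upstream of Klrb1c, chr6:129591362-129591661 upstream of Klrd1 and chr6:122270169-122270468 downstream of Klrg1. Capitals mark matches, on either strand, to the short motifs searched. The Runx motif was AACCACA and the T-box motif was GGTGTGA. The GATA motif was AGATAA and the AP-1 motif was TGANTCA. The TCF motif was ATCAAAG and the ETS motif was GGAAGT.
Klrc1_4: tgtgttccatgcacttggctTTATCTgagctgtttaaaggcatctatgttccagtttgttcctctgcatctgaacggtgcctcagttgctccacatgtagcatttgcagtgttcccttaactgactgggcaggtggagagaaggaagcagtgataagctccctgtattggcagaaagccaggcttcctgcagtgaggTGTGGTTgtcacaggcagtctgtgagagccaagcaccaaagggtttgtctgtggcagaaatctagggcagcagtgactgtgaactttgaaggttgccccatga
Klrc1_2: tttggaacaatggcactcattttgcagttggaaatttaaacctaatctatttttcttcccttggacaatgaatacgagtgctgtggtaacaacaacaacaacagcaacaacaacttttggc
Klrk1_7: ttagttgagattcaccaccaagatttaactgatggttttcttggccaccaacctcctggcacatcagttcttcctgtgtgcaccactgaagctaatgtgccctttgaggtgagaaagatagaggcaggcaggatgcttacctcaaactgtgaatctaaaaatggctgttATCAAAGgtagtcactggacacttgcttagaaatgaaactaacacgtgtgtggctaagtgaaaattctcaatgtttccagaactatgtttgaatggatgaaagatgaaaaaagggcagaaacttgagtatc
Klrb1c_5: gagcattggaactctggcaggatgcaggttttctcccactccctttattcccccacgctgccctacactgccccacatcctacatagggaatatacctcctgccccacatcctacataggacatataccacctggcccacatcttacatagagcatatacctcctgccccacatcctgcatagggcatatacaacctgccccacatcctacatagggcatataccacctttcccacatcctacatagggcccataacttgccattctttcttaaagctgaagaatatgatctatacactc
Klrd1_1: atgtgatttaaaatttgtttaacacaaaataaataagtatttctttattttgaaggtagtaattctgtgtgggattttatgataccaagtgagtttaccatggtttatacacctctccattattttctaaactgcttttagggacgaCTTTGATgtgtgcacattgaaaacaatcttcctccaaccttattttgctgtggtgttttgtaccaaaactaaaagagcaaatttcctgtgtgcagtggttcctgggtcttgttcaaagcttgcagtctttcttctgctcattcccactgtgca
Klrg1_5: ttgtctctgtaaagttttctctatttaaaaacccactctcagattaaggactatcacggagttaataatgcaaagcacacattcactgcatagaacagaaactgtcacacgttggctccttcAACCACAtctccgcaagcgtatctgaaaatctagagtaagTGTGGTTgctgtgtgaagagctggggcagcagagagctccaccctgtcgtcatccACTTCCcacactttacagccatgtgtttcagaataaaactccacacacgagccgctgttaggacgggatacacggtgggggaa

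The Klrc1_4 stretch held 1 Runx and 1 GATA match and the Klrg1_5 stretch 2 Runx matches and 1 ETS match. The Klrk1_7 and Klrd1_1 stretches held 1 TCF match each, and those of Klrc1_2 and Klrb1c_5 held none of the 6 motifs. The Klrb1c_5 stretch was built of near copies of 1 unit. At a shift of 32 bases, 58.6% of its bases met an identical base, compared with 30.1% to 42.6% at the best shift between 5 and 60 bases in the other 5 stretches. The authors removed reads with a low mapping quality, and how that acted on such repeats, or on the near-identical coding parts of Klrc1, Klrc2 and Klrc3, was not tested.

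Within a window as long as the shortest region, set on the center of each region, a Runx match was found in 11 of the 57 member regions (19.3%, compared with 13.6% of all regions), a GATA match in 23 (40.4%, compared with 19.8%) and an AP-1 match in 13 (22.8%, compared with 16.0%). T-box matches were found in 3 (5.26%, compared with 6.39%), TCF matches in 4 (7.02%, compared with 7.14%) and ETS matches in 18 (31.6%, compared with 29.8%). The GATA matches were more frequent in the 23 regions where the lung IFNγ+ libraries were not the highest (13 regions, 56.5%) than in the 34 where they were (10 regions, 29.4%). For Runx the shares were 8.70% (2 regions) and 26.5% (9 regions). These are counts of letters in a window and carry no test.

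Regions counted as accessible in a population once the mean over its libraries reached a density of 5, the study's minimum. By this measure 36 of the 57 Klr regions were accessible in at least 1 population, compared with 58.2% of all regions. In the LN IL-4+ cells 10 were accessible, in the lung IL-4+ cells 21 and in the lung IFNγ+ cells 34, while over the whole table the shares were alike at 43.7%, 43.6% and 42.9%. Lung IFNγ+ cells alone had 15 of them (5.67% of all regions showed this pattern), including the regions at the starts of Klrd1, Klrc1 and Klrc2. Both lung populations, but not the LN cells, shared 9 (3.99%), and all 3 populations shared 10 (30.8%). The other 2 accessible regions, Klrg1_8 and Klrb1f_8, reached the minimum in lung IL-4+ cells alone (4.87%). None of the 57 was accessible in the LN cells without being accessible in both lung populations.

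In most Klr regions the population means stood in the order LN IL-4+, lung IL-4+, lung IFNγ+. This order was found in 38 of the 57 regions and in 18.9% of all regions. Both lung IFNγ+ libraries lay above all 5 IL-4+ libraries in 34 Klr regions (12.7% of all regions), and both LN libraries lay below all 5 lung libraries in 23 (9.42%). Lung IFNγ+ libraries did not overlap lung IL-4+ libraries and lay above them in 34 (21.2% of all regions) and below them in 2 (19.4%), Klrg1_11 and Klrb1f_8. Lung IL-4+ libraries lay above LN libraries without overlap in 26 (13.6%) and below in 0 (14.3%). Lung IFNγ+ libraries lay above LN libraries in 48 (26.5%) and below in 1 (27.2%), Klrb1f_5. The median log2 difference over the 57 regions was 0.90 for lung IFNγ+ minus lung IL-4+ cells, 0.71 for lung IL-4+ minus LN IL-4+ cells and 1.61 for lung IFNγ+ minus LN IL-4+ cells, and the medians over all regions were 0.0055, -0.03 and -0.03. Since the genes were chosen for higher values in IFNγ+ cells, these contrasts, which also share their libraries, are no independent evidence of a direction.

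**Figure D1:**
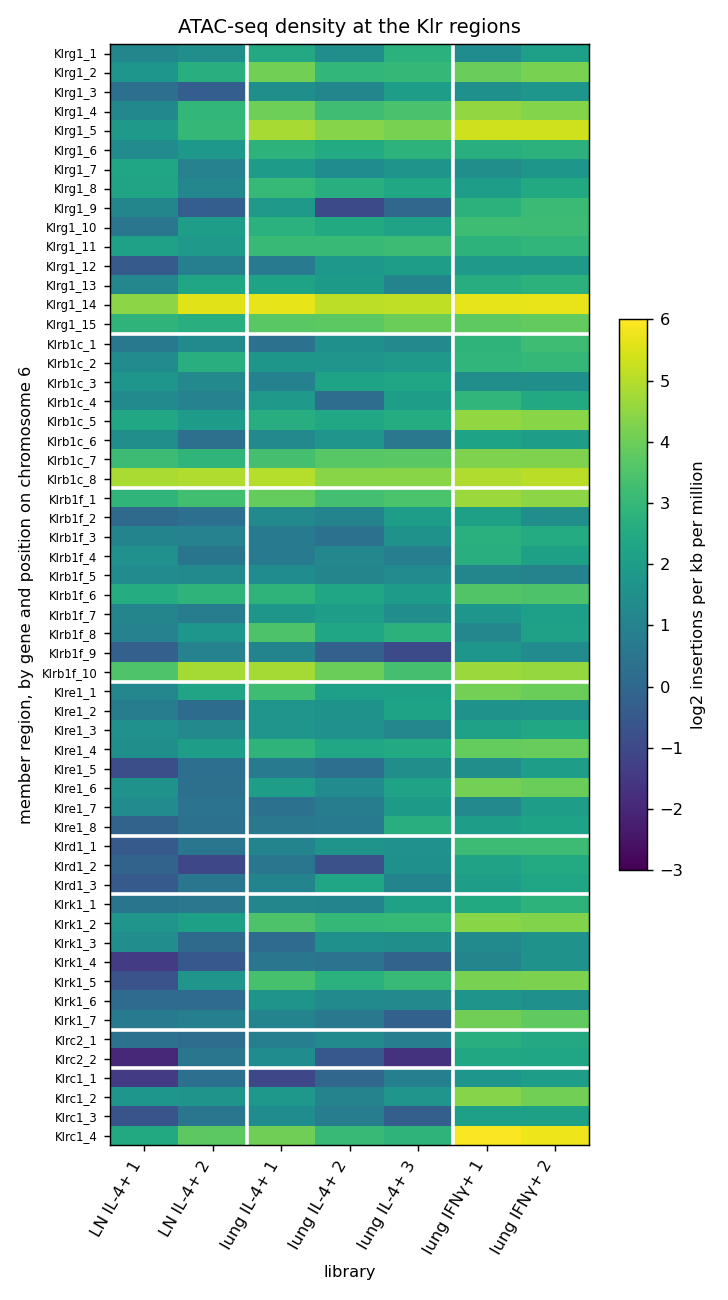
Heat map of log2 density (insertions per kb per 1000000, color) in the 57 Klr regions (rows, by gene and position) and the 7 libraries (columns, by population, with white lines between genes and populations). The lung IFNγ+ columns are brightest in most rows, both lung IFNγ+ libraries being above all 5 IL-4+ libraries in 34 of the 57.

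With limma on all 113820 regions (Benjamini-Hochberg adjusted p below 0.05 and at least 3-fold), 4 Klr regions were called in lung IFNγ+ over lung IL-4+ cells, a call made in 0.387% of all regions. These were Klrc1_2, Klrc1_4, Klrk1_7 and Klrb1c_5. In lung IL-4+ over LN cells 2 were called (1.05% of all regions), Klrg1_5 and Klrk1_5. In lung IFNγ+ over LN cells 14 were called (2.17%), which included the former 6 and lay at every gene but Klrb1f. No Klr region was called in the opposite directions by limma, by an unadjusted p below 0.05 at the same fold or by voom on rebuilt counts, where 0.108%, 0.695% and 0.862% of all regions were called by limma. The number of calls depended on single libraries, over the whole table as well as at the Klr regions. With every library, 441 of all regions were called in lung IFNγ+ over lung IL-4+ cells (2192 unadjusted). Without lung IL-4+ replicate 2 or 3 these were 1 and 40 (1963 and 1818 unadjusted). Over LN cells, the 2469 calls of lung IFNγ+ cells became 1715 and 2379, and the 1191 of lung IL-4+ cells 250 and 816. Where a population was left with 1 library, the fit took its spread from the other populations. The 4 calls between the lung populations fell to 0 when replicate 2 or 3 of the lung IL-4+ cells, or either lung IFNγ+ library, was left out, with between 8 and 12 Klr regions at an unadjusted p below 0.05, and were 6 without lung IL-4+ replicate 1. The 14 calls against LN cells were 0 without lung IFNγ+ replicate 1 (21 unadjusted) and 1 without replicate 2 (19 unadjusted). The 2 calls between the IL-4+ populations were 0 without LN IL-4+ replicate 1 (2 unadjusted) or lung IL-4+ replicate 2 (6 unadjusted), 4 without LN IL-4+ replicate 2, and 1 without any other single lung library. The folds moved less than the calls. All 4 regions stayed at least 3-fold higher whichever library was left out, with log2 differences between 1.89 and 3.73. Without LN IL-4+ replicate 1, 0 of the 2 and 12 of the 14 stayed at 3-fold, all still higher in the lung cells, and without any other library all 2 and all 14 did.

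**Figure D2:**
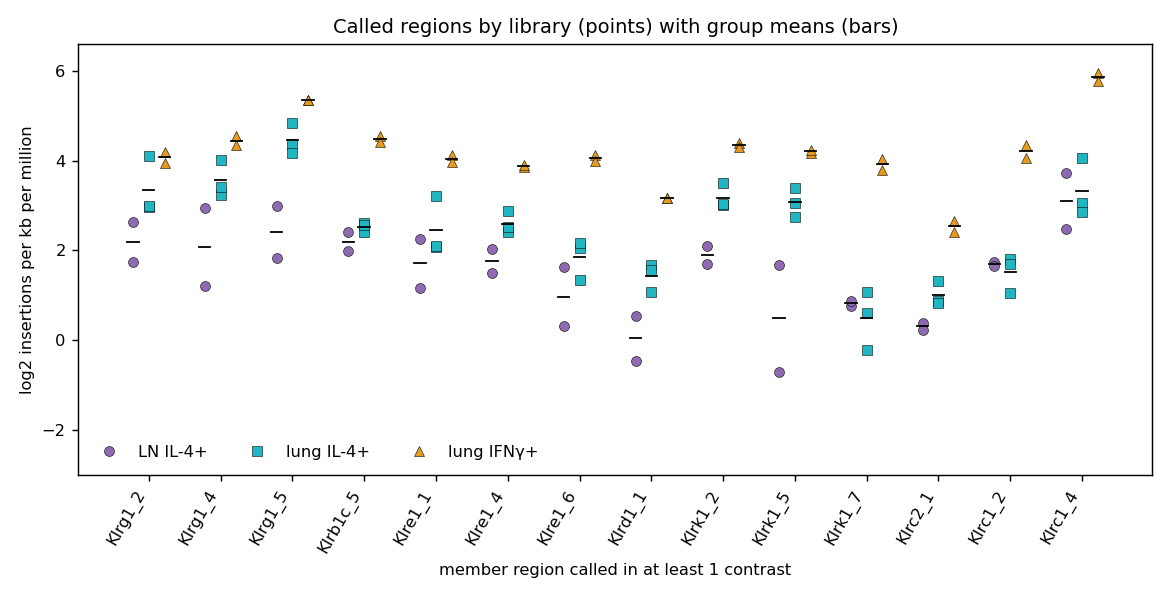
Log2 density (insertions per kb per 1000000, y axis) in each library for the 14 Klr regions called in at least 1 contrast (x axis), with circles for LN IL-4+, squares for lung IL-4+ and triangles for lung IFNγ+ libraries and short bars for population means. At Klrb1c_5, Klrk1_7 and Klrc1_2 the circles and squares lie together below the triangles, while at Klrg1_5 and Klrk1_5 the squares lie between the circles and the triangles.

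The called regions showed a pair of patterns, which in part restate the contrast in which a region was called. At Klrc1_2, Klrc1_4, Klrk1_7 and Klrb1c_5 the IL-4+ cells of LN and lung overlapped and the lung IFNγ+ cells stood above both. At Klrg1_5 and Klrk1_5 the lung IL-4+ cells stood above the LN cells as well, with the lung IFNγ+ cells higher again. The remaining 8 were called only in lung IFNγ+ over LN cells, and their lung IL-4+ mean lay between the other means. At Klre1_1 and Klre1_6 the IL-4+ populations overlapped below the lung IFNγ+ cells, as in the first pattern. At Klrg1_2, Klrg1_4, Klre1_4, Klrd1_1, Klrk1_2 and Klrc2_1 the lung IL-4+ cells lay above the LN cells without overlap, as in the second. At Klrg1_2 alone of these the lung populations overlapped.

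Klrc1, which encodes the inhibitory chain NKG2A, held 2 of the 4 regions called between the lung populations. Its upstream region Klrc1_4 (129680236 to 129680817, 1263 bp from the start, intergenic) had log2 densities of 5.94 and 5.77 in the lung IFNγ+ libraries. The lung IL-4+ libraries had 4.05, 3.06 and 2.85 and the LN IL-4+ libraries 2.48 and 3.72. The lung IL-4+ and LN values overlapped, and both lung IFNγ+ values stood above all of them. The mean densities were 58.0 in lung IFNγ+, 10.7 in lung IL-4+ and 9.39 in LN IL-4+ cells, and the log2 difference between the lung populations was 2.53 (SE 0.40). Klrc1_4 had the highest mean density of the 57 member regions in any population. A region at Klri2, outside the 57, was higher, with a mean log2 density of 6.72 in lung IFNγ+ cells.

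The promoter region Klrc1_2 (129678659 to 129679094, over the first exon) had 4.35 and 4.07 in the lung IFNγ+ libraries. It had 1.81, 1.04 and 1.69 in the lung IL-4+ and 1.74 and 1.66 in the LN IL-4+ libraries, so that IL-4+ cells of both tissues were alike in range. Lung IFNγ+ cells exceeded lung IL-4+ cells by 2.70 (SE 0.35), a 6.49-fold difference, and the region was called in 12 of 17 other settings. Here and below these settings share their libraries and are not independent. A fold of 2 keeps every call by its rule. Leaving out a library of the third population leaves the difference unchanged and alters only its error. The other Klrc1 regions, Klrc1_1 and Klrc1_3, stayed under a mean density of 5 in every population, and in both of them the lung IFNγ+ libraries were again the highest.

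Klrc2, the gene of the activating chain NKG2C, had 2 regions, both with a low signal. Its promoter region Klrc2_2 (129660453 to 129660854, over the first exon) had 2.41 and 2.31 in the lung IFNγ+ libraries, 1.37, -0.52 and -1.68 in the lung IL-4+ and -2.00 and 0.52 in the LN IL-4+ libraries. The spread within both IL-4+ populations was wide, and the rebuilt counts, lower bounds of the insertions, were between 8 and 133 per library. The log2 difference between the lung populations was 2.63 (SE 1.02), and it was not called. Over lung IL-4+ replicate 1 alone, the lung IL-4+ library in the spread class of the lung IFNγ+ libraries (below), the difference was 0.98. The second region, Klrc2_1 (129640242 to 129640767), lies in an intron of the neighbouring Klrc3. It had 2.66 and 2.42 in the lung IFNγ+, 0.87, 1.30 and 0.83 in the lung IL-4+ and 0.38 and 0.22 in the LN IL-4+ libraries, in which no population overlapped another. It was called against LN cells at 2.24 (SE 0.51).

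Klrd1, whose product CD94 is the partner of both NKG2 chains, had its widest difference at its start. The promoter region Klrd1_1 (129591039 to 129591983, over the first exon) had 3.17 and 3.17 in the lung IFNγ+, 1.07, 1.68 and 1.57 in the lung IL-4+ and -0.47 and 0.54 in the LN IL-4+ libraries. The populations formed 3 separate steps. The mean densities were 9.01, 2.75 and 1.09, and the difference of lung IFNγ+ from LN cells was called at 3.13 (SE 0.51), or 8.78-fold. Between the lung populations it was 1.73 (SE 0.47) and was not called. The second region, Klrd1_2 over an exon near the end of the gene, reached a density of 5.14 in lung IFNγ+ cells and 1.64 or less in the IL-4+ populations, and Klrd1_3 beyond it stayed under 5 in all.

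**Figure D3:**
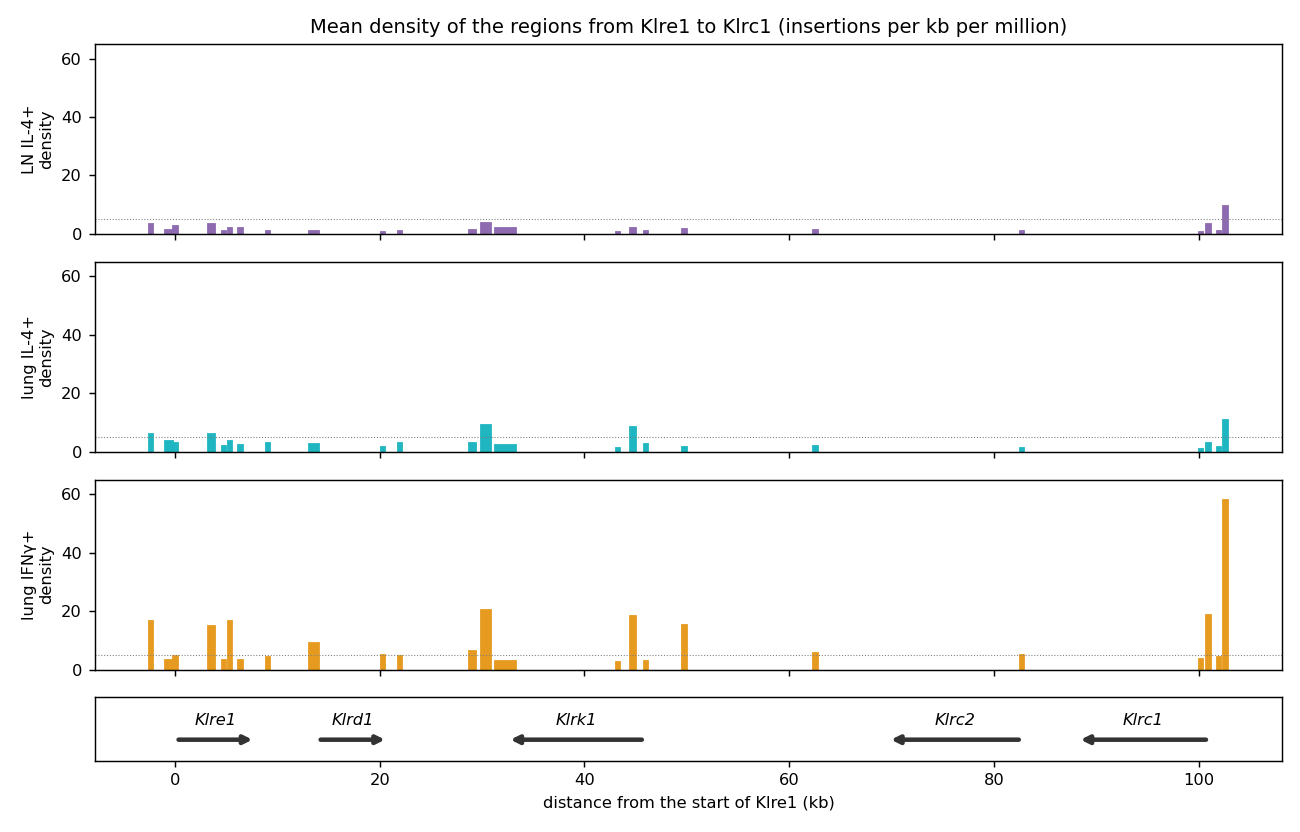
Mean density (insertions per kb per 1000000, bars as wide as the regions) in the 3 populations along the stretch from Klre1 to Klrc1, with the distance from the Klre1 start in kb on the x axis, a dotted line at the accessibility minimum of 5 and arrows for the genes in their direction of transcription. In the lung IFNγ+ panel the bars of Klrc1_4 (58.0), Klrc1_2 (18.6) and Klrk1_7 (15.1) are tall, where the LN IL-4+ and lung IL-4+ panels have at most 10.7.

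Klrk1, the gene of the activating receptor NKG2D, showed both patterns within 1 locus. In the intergenic region Klrk1_7 (129627441 to 129627910, 3577 bp upstream of the start) the lung IFNγ+ libraries had 4.04 and 3.79. The lung IL-4+ libraries had 1.07, 0.59 and -0.22 and the LN IL-4+ libraries 0.76 and 0.88. The IL-4+ populations overlapped at a low level, and the difference between the lung populations, 3.43 (SE 0.48) or 10.8-fold, was the largest of the 57. Region Klrk1_5 (129622349 to 129622897) lies inside the gene over an alternative start. It had 4.18 and 4.23 in the lung IFNγ+, 3.39, 2.75 and 3.06 in the lung IL-4+ and -0.70 and 1.68 in the LN IL-4+ libraries. Here lung IL-4+ cells exceeded LN cells by 2.58 (SE 0.56) and lung IFNγ+ cells exceeded LN cells by 3.72 (SE 0.62), both called, while the lung populations differed by 1.14 (SE 0.56). The LN libraries were far apart in this region, at rebuilt counts as low as 23, and the call between the IL-4+ populations was made in 7 of 17 other settings. These LN libraries also belong to different spread classes (below). Lung IL-4+ cells exceeded LN cells by 3.61 within the narrow and by 1.71 within the wide class.

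The Klrk1 region nearest to the outermost start, Klrk1_6, was low throughout. It had 1.66 and 1.50 in the lung IFNγ+, 1.65, 1.31 and 1.22 in the lung IL-4+ and 0.16 and 0.16 in the LN IL-4+ libraries. The lung populations overlapped there and both lay above the LN cells. At the other end of the gene, region Klrk1_2 (129607793 to 129608790), which is nearer to the start of Klrd1 than to that of Klrk1, had 4.39 and 4.30 in the lung IFNγ+, 3.50, 3.01 and 3.03 in the lung IL-4+ and 1.70 and 2.11 in the LN IL-4+ libraries. It stepped up from LN to lung IL-4+ to lung IFNγ+ cells without overlap, and was called between the last and the first at 2.44 (SE 0.30).

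Klre1 was called at 3 regions against LN cells and at none between the lung populations. Its widest range was in Klre1_6 (129583056 to 129583469), which overlaps exons of the gene and the start of a shorter transcript. The lung IFNγ+ libraries had 4.13 and 3.99 there, the lung IL-4+ libraries 2.06, 1.33 and 2.17 and the LN IL-4+ libraries 1.62 and 0.31. The IL-4+ populations overlapped below the lung IFNγ+ cells, which exceeded LN cells by 3.10 (SE 0.49) and lung IL-4+ cells by 2.20 (SE 0.45). The latter difference was called in 6 of 17 other settings.

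The intergenic region Klre1_1, 2124 bp upstream of the start, had 4.12 and 3.96 in the lung IFNγ+, 3.21, 2.06 and 2.11 in the lung IL-4+ and 1.16 and 2.26 in the LN IL-4+ libraries. Lung IL-4+ replicate 1 stood above the rest of its population here. The intron region Klre1_4 had 3.86 and 3.91, then 2.87, 2.40 and 2.51, then 1.49 and 2.02 in the same order, with no overlap between any populations. Over the outermost start itself, Klre1_3 had 2.14 and 2.36 in the lung IFNγ+, 1.70, 1.56 and 1.18 in the lung IL-4+ and 1.54 and 1.22 in the LN IL-4+ libraries, which was the narrowest difference of the named Klre1 regions at 0.87 (SE 0.44) between lung IFNγ+ and LN cells.

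Klrb1c, the gene of the NK1.1 antigen, was called at 1 region. Cells with NK1.1 on the surface had been gated out of every population. Klrb1c_5 (128792903 to 128793411) is the repeat-bearing region 3688 bp upstream of the start, in an intron of the predicted gene Gm44511. It had 4.55 and 4.41 in the lung IFNγ+, 2.61, 2.40 and 2.56 in the lung IL-4+ and 2.40 and 1.99 in the LN IL-4+ libraries. All IL-4+ libraries lay close together and below both lung IFNγ+ libraries. The differences were 1.96 (SE 0.26) between the lung populations and 2.29 (SE 0.29) between lung IFNγ+ and LN cells, called in 12 and 15 of 17 other settings. Upstream of it, Klrb1c_7 and Klrb1c_8 carried most of the signal of the locus, and the mean densities of Klrb1c_8 in lung IFNγ+, lung IL-4+ and LN IL-4+ cells were 31.9, 24.7 and 29.7.

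The regions on either side of the Klrb1c start did not move alike. Klrb1c_4, upstream of the outermost start and nearer to it when measured from the region's center, had 2.94 and 2.46 in the lung IFNγ+, 1.83, 0.21 and 1.99 in the lung IL-4+ and 1.32 and 1.01 in the LN IL-4+ libraries. The lung IFNγ+ libraries were the highest there too, but the lung IL-4+ libraries spread widely, and no contrast was called. Klrb1c_3, the only region within the gene body, overlaps an annotated start and the exons behind it. It had 1.46 and 1.49 in the lung IFNγ+, 0.94, 2.22 and 2.29 in the lung IL-4+ and 1.73 and 1.23 in the LN IL-4+ libraries. All 3 populations overlapped there, and the difference between the lung populations was -0.34 (SE 0.50).

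Klrb1f, the gene of NKR-P1F, was the one member without a called region. Its widest range was in Klrb1f_3 (7080 bp upstream), with 2.72 and 2.53 in the lung IFNγ+, 0.67, 0.40 and 1.59 in the lung IL-4+ and 1.05 and 0.98 in the LN IL-4+ libraries. Klrb1f_4, the region nearest to the outermost start, had 2.65 and 2.10, then 0.73, 1.15 and 0.86, then 1.55 and 0.50 in the same order. Both lung IFNγ+ libraries were the highest in these regions, by 1.74 (SE 0.49) and 1.46 (SE 0.50) over lung IL-4+ cells. The intron region Klrb1f_8 had the opposite order, with 3.49, 2.33 and 2.78 in the lung IL-4+ and 1.17 and 2.14 in the lung IFNγ+ libraries, and 0.98 and 1.71 in the LN IL-4+ libraries.

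Klrg1, the inhibitory receptor of differentiated effector T cells, was called at regions in the contrasts with LN cells and at none between the lung populations. Region Klrg1_5 (122270090 to 122270547, intergenic, just downstream of the gene) had 5.36 and 5.36 in the lung IFNγ+, 4.83, 4.38 and 4.18 in the lung IL-4+ and 1.84 and 2.98 in the LN IL-4+ libraries. The mean densities were 41.0, 22.5 and 5.74. Both lung populations were called against LN cells, at 2.95 (SE 0.35) for lung IFNγ+ and 2.05 (SE 0.32) for lung IL-4+ cells, in 16 and 13 of 17 other settings. The lung populations did not overlap either, at a difference of 0.89 (SE 0.32).

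A pair of regions further downstream also had the population means in this order. Klrg1_4 had 4.54 and 4.35 in the lung IFNγ+, 4.02, 3.24 and 3.41 in the lung IL-4+ and 1.20 and 2.95 in the LN IL-4+ libraries. Klrg1_2 had 3.95 and 4.20, then 4.10, 2.96 and 2.98, then 1.74 and 2.64 in the same order, and lung IL-4+ replicate 1 overlapped the lung IFNγ+ libraries there. The promoter region Klrg1_7 (122282498 to 122283051, over the first exon) showed no such order, with 1.46 and 1.76 in the lung IFNγ+, 1.93, 1.36 and 1.64 in the lung IL-4+ and 2.28 and 0.98 in the LN IL-4+ libraries. All 3 populations overlapped there, and the contrasts were between -0.04 and 0.02. Region Klrg1_9 (1899 bp upstream, intergenic) had a pattern of its own within the locus, with 2.78 and 3.12 in the lung IFNγ+, 1.84, -0.97 and -0.04 in the lung IL-4+ and 1.14 and -0.32 in the LN IL-4+ libraries. The lung IFNγ+ libraries were the highest, by 2.67 (SE 0.81) over lung IL-4+ cells, while the IL-4+ populations overlapped over a wide spread, at rebuilt counts as low as 12, and no contrast was called. Over lung IL-4+ replicate 1 alone, the lung IL-4+ library in the spread class of the lung IFNγ+ libraries (below), the difference was 1.11. The upstream region Klrg1_14 was the most accessible of the locus, with mean densities of 51.3 in lung IFNγ+, 40.0 in lung IL-4+ and 34.9 in LN IL-4+ cells.

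Summed over all regions of a gene, lung IFNγ+ libraries lay above all IL-4+ libraries at each of the 8 genes. Klrc1 had sums of 47.7 and 42.3 normalized insertions per 1000000 in the lung IFNγ+, 12.4, 6.84 and 6.67 in the lung IL-4+ and 5.11 and 10.1 in the LN IL-4+ libraries. The IL-4+ populations overlapped at Klrc1, Klrc2 and Klrb1f and were separate at the other 5 genes. No share over other genes is given beside these counts, and the 8 genes were chosen for higher values in IFNγ+ cells. The counts are therefore a description. The ratio of lung IFNγ+ to lung IL-4+ cells was 5.44 at Klrc1, 3.41 at Klrc2, 2.80 at Klrd1, 2.20 at Klre1, 2.20 at Klrk1, 1.66 at Klrb1f, 1.58 at Klrb1c and 1.18 at Klrg1. The ratio of lung IL-4+ to LN IL-4+ cells ran differently, with 2.60 at Klrd1, 2.03 at Klrk1, 1.79 at Klrg1 and 1.73 at Klre1, and 1.55, 1.23, 1.15 and 1.08 at Klrc2, Klrb1f, Klrc1 and Klrb1c.

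**Figure D4:**
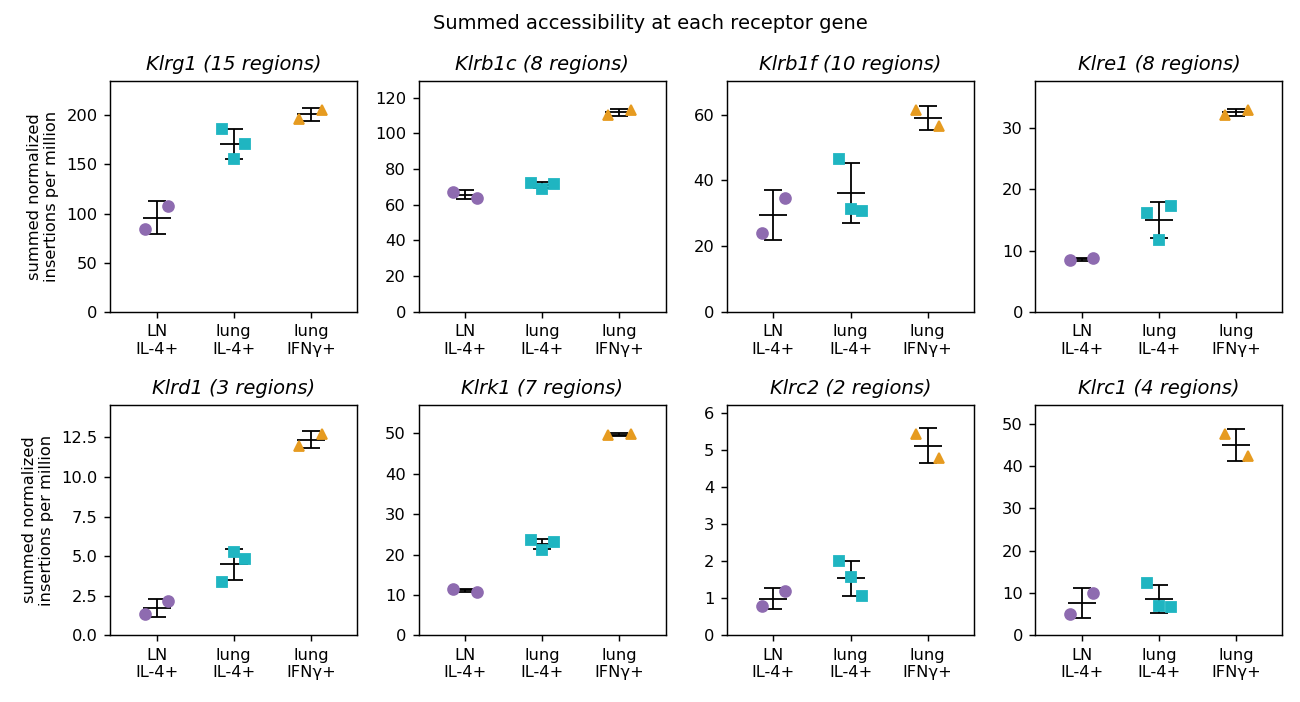
Summed normalized insertions per 1000000 (y axis, from 0, separate scales) over the regions of each of the 8 genes, with a point per library and the mean and SD of each population (n = 2 LN IL-4+, 3 lung IL-4+, 2 lung IFNγ+). The lung IFNγ+ points are the highest in each panel, by a ratio over lung IL-4+ cells between 1.18 at Klrg1 and 5.44 at Klrc1.

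Per kilobase of region, Klrc1 was the most accessible of the 8 genes in lung IFNγ+ cells, with a density of 24.8 ± 2.09 (SD, n = 2). It was followed by Klrb1c (15.4 ± 0.285), Klrg1 (14.1 ± 0.463), Klrb1f (10.6 ± 0.643), Klrk1 (8.95 ± 0.0607), Klre1 (8.22 ± 0.137), Klrd1 (7.08 ± 0.312) and Klrc2 (5.53 ± 0.511), all as density with SD, and the libraries of neighbours in this order did not overlap. In lung IL-4+ cells Klrg1 led (density 12.0 ± 1.07, n = 3), Klrb1c was next (9.77 ± 0.226) then came Klrb1f and then Klrc1 (4.75 ± 1.78). From Klrb1f down to Klrc2, the last, neighbours in the lung IL-4+ order overlapped. In LN IL-4+ cells Klrb1c led (density 9.05 ± 0.329, n = 2), and Klrc2 (1.06 ± 0.308) and Klrd1 (1.00 ± 0.323) came last and overlapped. These densities average over regions up to 10 kb from the gene.

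Of the 57 member regions, 20 had a gene start within 1 kb, 26 were intergenic, 8 lay in introns and 3 over other exons. The promoter regions had a median log2 difference of 1.02 between lung IFNγ+ and lung IL-4+ cells, compared with 0.89 for the other 37, and 0.48 compared with 0.84 between lung IL-4+ and LN IL-4+ cells. Called regions numbered 4 of 20 and 10 of 37. The outermost regions inside the 10 kb limit were Klrb1f_10, Klrb1c_8 and Klrg1_15, between 9502 and 9964 bp from their gene. In order of the 7 libraries from LN to lung IL-4+ to lung IFNγ+, Klrg1_15 had 2.86, 2.65, 3.68, 3.74, 3.98, 3.77 and 3.85. The nearest region outside the limit, 11060 bp from Klrg1, had 2.94, 3.76, 4.00, 3.67, 3.75, 4.58 and 4.47.

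Libraries differed in ways that the populations do not explain. By rebuilt counts the libraries held at least 14005923 to 91681969 insertions, and the median Klr region had between 45 and 64 insertions in the IL-4+ libraries and 151 and 313 in the lung IFNγ+ libraries. The spread of counts over regions divided the libraries into a narrow class (LN replicate 1 with replicates 2 and 3 of the lung IL-4+ cells) and a wide class (LN replicate 2, both lung IFNγ+ libraries and replicate 1 of the lung IL-4+ cells), so that lung IFNγ+ cells could be compared within the wide class alone. There, both lung IFNγ+ libraries lay above lung IL-4+ replicate 1 and LN IL-4+ replicate 2 in 44 Klr regions (22.8% of all regions). The log2 difference between the lung populations within that class was 1.81 at Klrc1_4, 2.41 at Klrc1_2, 2.84 at Klrk1_7 and 1.87 at Klrb1c_5. For the sum over the 8 genes it was 0.51, compared with 0.65 over all libraries. Lung IL-4+ cells lay above LN cells within both classes in 33 Klr regions (23.7%), and the difference at Klrg1_5 was 2.44 in the narrow and 1.85 in the wide class.

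Lung IL-4+ replicate 1 lay above replicates 2 and 3 in 29 Klr regions (39.9% of all regions), with a median excess of 0.33 on the log2 scale over the 57, compared with 0.05 over all regions. Its sum at Klrc1 was 12.4, compared with 6.84 and 6.67 in the other lung IL-4+ libraries. Without it the log2 difference of the Klrc1 sums between the lung populations was 2.73, and with it 2.44. Replicate 1 is also the lung IL-4+ library of the wide class, so that replicate and class cannot be told apart here. Of the LN libraries, the mean log2 density over the 57 regions was 1.43 in the wide replicate 2 and 1.13 in the narrow replicate 1.

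Markers of other cells that a CD4+ sort could carry were read at their promoters, although the gates above exclude cells with surface NK1.1, CD8, B220 or CD11b (the product of Itgam). All 6 CD4+ T cell genes had a region, Cd4 at a density between 21.0 and 26.7 in each library, while Cd8a had none. Of 6 NK cell markers, Ncr1, Klra4, Klra8 and Klra9 had no promoter region. A region of Klra9 away from its start was higher in lung IFNγ+ cells, as given below. Eomes and Fcer1g had a promoter region. Their summed density was between 6.80 and 11.1 in LN IL-4+, 6.29 and 10.1 in lung IL-4+ and 7.97 and 8.70 in lung IFNγ+ libraries. The genes behind this sum differed. Eomes had 4.78 and 4.21 in the lung IFNγ+, 4.42, 6.91 and 5.58 in the lung IL-4+ and 7.60 and 5.56 in the LN IL-4+ libraries. Fcer1g had 3.92 and 3.75, then 1.88, 1.81 and 4.52, then 3.55 and 1.24 in the same order. At Fcer1g the lung IFNγ+ libraries lay above the LN libraries and overlapped the lung IL-4+ libraries. Zbtb16, a factor of NKT cells, was between 1.94 and 5.79 and overlapped between the populations, and Cd8b1 was between 2.95 and 7.31. Of 5 myeloid markers only Cd14 and Itgam had a region, and their sum was between 10.9 and 13.8 in lung IFNγ+, 7.27 and 8.78 in lung IL-4+ and 6.04 and 10.6 in LN IL-4+ libraries, the highest being Itgam in the lung IFNγ+ libraries at 7.77 and 5.39. Itgam is also carried by NK cells and some effector T cells, and its part in the Klr values was not tested. Of 5 B cell markers only Pax5 had a region, at 35.3 and 37.4 in LN IL-4+, 7.70 to 21.8 in lung IL-4+ and 16.5 and 20.7 in lung IFNγ+ libraries. The sums for lung epithelium (1 of 3 genes) and endothelium (1 of 2) were not highest in the lung IFNγ+ libraries, at 9.23 and 9.47 and at 13.7 and 14.2.

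The rest of the Klr family was read from a list that holds 18 other genes, 14 of which had regions of their own, 32 in all. In the limma fit 3 of the 32 were called in lung IFNγ+ over lung IL-4+ cells (0.387% of all regions). In lung IL-4+ over LN cells 1 was called (1.05%) and in lung IFNγ+ over LN cells 9 (2.17%). In the opposite directions there were 0 (0 at an unadjusted p below 0.05), where limma called 0.108%, 0.695% and 0.862% of all regions. Over all 113820 regions, 2192, 2423 and 5004 passed unadjusted at the same fold in these 3 contrasts. With voom on rebuilt counts the same 3 counts were 0, 0 and 8, compared with 230, 0 and 2819 over all regions. The median log2 difference of the 32 between the lung populations was 0.96. A region at Klri2 (129747216 to 129747819), whose product pairs with KLRE1, was called in all 3 contrasts. Lung IFNγ+ cells exceeded lung IL-4+ cells there by 2.15 (SE 0.39, limma adjusted p = 0.0425), lung IL-4+ cells exceeded LN cells by 2.74 (SE 0.39, limma adjusted p = 0.00747) and lung IFNγ+ cells exceeded LN cells by 4.88 (SE 0.42, limma adjusted p = 0.00083). Single regions of Klra5 and Klra9, genes of the Ly49 receptors, were higher in lung IFNγ+ than in lung IL-4+ cells by 2.86 (limma adjusted p = 0.0397) and 2.84 (limma adjusted p = 0.0380). Ly49 genes are near-identical copies, and their values are uncertain for that reason.

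The complex also holds other lectin genes. Of 44 regions of the Clec genes and Cd69, limma called 0 in lung IFNγ+ over lung IL-4+ cells (0.387% of all regions). At an unadjusted p below 0.05 there were 4, and with voom 0. A region at Cd69, an activation and retention marker of T cells that lies between Klrb1f and Klre1, had a surplus of 1.78 in lung IL-4+ over LN cells (SE 0.30, limma adjusted p = 0.0132). It was the only call of these 44 in that contrast (1.05% of all regions), and with voom there was none, here or over all regions. Its log2 density was 2.73 ± 0.11 in lung IFNγ+ (SD, n = 2), 3.82 ± 0.40 in lung IL-4+ (SD, n = 3) and 2.04 ± 0.16 in LN IL-4+ cells (SD, n = 2). Against LN cells, 2 regions at Clec12a and 1 at Clec1b were higher in lung IFNγ+ cells (2.17% of all regions). The differences were 2.85, 3.18 and 3.59 (limma adjusted p = 0.0413, 0.0259 and 0.0108), and voom called 2.

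The genes that carry or meet the receptors' signals were read in the same way. Of 249 regions at 12 adaptor and signalling genes, limma called 0 between the lung populations (0.387% of all regions higher in lung IFNγ+ cells, 0.108% lower). At an unadjusted p below 0.05, 5 were higher in lung IFNγ+ and 1 higher in lung IL-4+ cells, and voom called 0. Against LN cells, 4 regions at Syk (2), Lck (1) and Vav1 (1) were higher in lung IFNγ+ cells and 1 at Ptpn11 was lower (2.17% and 0.862% of all regions). The balance was the opposite with voom, at 1 higher and 4 lower, and at an unadjusted p below 0.05, at 7 and 14. Lung IFNγ+ libraries lay without overlap above LN libraries in 37 of the 249 and below them in 118, compared with 26.5% and 27.2% of all regions, and the median log2 difference was -0.36. In lung IL-4+ cells 1 Syk region was higher and 1 Ptpn11 region lower than in LN cells (1.05% and 0.695% of all regions). The counts were 2 and 13 unadjusted and 0 and 0 with voom. No region was called at Hcst or Tyrobp, the adaptors of NKG2D and of the CD94 pair with NKG2C. Of 67 regions at 8 ligand genes, limma called 0 between the lung populations (0.387% and 0.108% of all regions in the 2 directions). It called 0 between the IL-4+ populations (1.05% and 0.695%). At an unadjusted p below 0.05 there were 2 and 1 between the lung populations and 0 between the IL-4+ populations, and voom called 0 in both. Against LN cells, limma and voom each called 3 as higher in lung IFNγ+ cells (2.17% of all regions by limma). Of them, 2 at Raet1e, a gene of NKG2D ligands, were higher by 2.27 (SE 0.31, limma adjusted p = 0.0043) and 2.59 (SE 0.37, limma adjusted p = 0.0053). A region at Cdh1, the E-cadherin bound by KLRG1, was higher by 1.78 (SE 0.30, limma adjusted p = 0.0111), and none was called at H2-T23, the gene of Qa-1.

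Among 12 transcription factors of NK and effector T cells (316 regions), limma called 0 regions between the lung populations. Over all regions, 0.387% were called higher in lung IFNγ+ and 0.108% higher in lung IL-4+ cells. At an unadjusted p below 0.05, 1 of the 316 was higher in lung IFNγ+ and 6 were higher in lung IL-4+ cells, and voom called 0. In lung IL-4+ over LN cells limma called 6 (1.05% of all regions), of which 3 lay at Runx3 and 1 each at Tbx21, Zeb2 and Bhlhe40. With voom this count was 0, here and over all regions, and with limma 9 passed unadjusted. In lung IFNγ+ over LN cells it called 11 (2.17% of all regions), which were 3 at Tbx21, 2 at Zeb2, 2 at Runx3 and 1 each at Bach2, Bhlhe40, Gata3 and Prdm1, and another region of Bach2 was lower. The counts of higher and lower regions were 10 and 5 with voom and 18 and 11 at an unadjusted p below 0.05. Lung IFNγ+ libraries lay without overlap above LN libraries in 96 of the 316 and below them in 99 (26.5% and 27.2% of all regions). The median log2 difference was -0.05. Compared with lung IL-4+ libraries, they lay above in 40 and below in 81 (21.2% and 19.4%). The Tbx21 region at 97103191 to 97104480 on chromosome 11 exceeded LN cells by 2.43 (SE 0.32, limma adjusted p = 0.0039) in lung IFNγ+ and by 2.19 (SE 0.29, limma adjusted p = 0.0060) in lung IL-4+ cells.

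The profile of the summed Klr signal over the 7 libraries was compared with that of 13208 other protein-coding genes outside this stretch of chromosome 6. The closest were Gm5134, Per3, Cryba4, Myrip and Sox5, with Pearson's r between 0.985 and 0.990 over 7 libraries, and 85 genes had an r above 0.95. All points share their libraries and their depth, and no test goes with these values. Per3, a clock gene, had summed insertions per 1000000 of 125.9 and 118.7 in the lung IFNγ+, 89.1, 87.1 and 83.7 in the lung IL-4+ and 61.0 and 71.6 in the LN IL-4+ libraries.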

How the data were processed

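Accessibility was taken from the deposited table of normalized values for 7 ATAC-seq libraries, and every column was used (0 columns belonged to other samples). The authors trimmed and mapped the reads to GRCm38/mm10 (Bowtie2 2.3.2 per the labels), marked duplicates, removed mitochondrial, blacklisted and low-quality reads, called summits per replicate (MACS2 2.1.1), merged them into regions, counted transposase insertions and normalized them with voom (limma 3.38.3). The deposited values are log2 densities, in insertions per kb per 1000000 insertions, and from the values they are also quantile-normalized. Regions with equal counts share a value to 8 decimals after the length is added back, and the rank among these values gave rebuilt counts, which are lower bounds of the depth. Insertions are not independent molecules, and no interval was derived from them.

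The log2 values of all 113820 regions were fitted in limma 3.58.1 (R 4.3.3) with 1 mean per population, moderated variances (eBayes, trend) and p-values adjusted by Benjamini-Hochberg over all regions in each of 3 contrasts. The thresholds for a call were an adjusted p of 0.05 and 3-fold. Member regions were those within the gene (GENCODE M21) and 10 kb, and gene sums added density times length. Named regions were those called in a contrast, the one within 1 kb of a start whose center was nearest to the outermost start, and the one with the widest range of population means. Klrb1c_3, Klrb1c_7, Klrb1c_8, Klrb1f_8, Klrg1_9, Klrg1_14, Klrc1_1, Klrc1_3, Klrd1_2, Klrd1_3 and the edge regions were added after their values were seen. The genes and lists were chosen with earlier results of these data known. Alternatives were a pseudocount of 1, a filter on low regions, other normalizations, fits of 2 populations, a replicate block, array weights, voom on rebuilt counts, the spread class as a covariate, another fold, other flanks and each library left out. Motifs and tables were computed in Python 3.11.15 with numpy 2.4.6, pandas 2.3.3 and pysam 0.24.0, and figures were drawn with matplotlib 3.10.9. The start coordinates of regions are printed as deposited, and for sequences they were taken to count from 0.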

Additional observations from a re-analysis of the deposited data

How the results depend on the processing

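The 3 counts of called Klr regions (4 in lung IFNγ+ over lung IL-4+, 2 in lung IL-4+ over LN IL-4+ and 14 in lung IFNγ+ over LN IL-4+ cells) were the same within 1.5 times with a pseudocount of 1, a filter on low regions and quantile normalization, and the opposite directions had 0 calls in every setting. In the same order, the counts were 15, 2 and 17 with array weights, 2, 0 and 15 with voom on rebuilt counts, 1, 1 and 5 with the gene body alone, 4, 1 and 15 with median centring, 6, 1 and 10 with 2 populations in the fit, 5, 4 and 16 with the spread class as a covariate and 4, 4 and 17 at a fold change of 2. Leaving out 1 library gave 0 to 6, 0 to 4 and 0 to 16. Over all 113820 regions the calls moved with the setting as well. In the same order they were 441, 1191 and 2469 in the main fit and 3440, 983 and 3286 with array weights. With voom on rebuilt counts they were 230, 0 and 2819. Fits of 2 populations gave 901, 639 and 1789, the spread class 746, 2436 and 3241 and the replicate block 0, 0 and 468. Accessible Klr regions numbered 19 at a mean density of 10 or more. With the replicate number as a block the counts were 0, 0 and 4 (12, 3 and 30 at an unadjusted p below 0.05). Same-numbered libraries had correlations of their deviations between -0.54 and 0.06. In a population of 2 libraries the deviations are exact opposites, so these correlations cannot show whether same-numbered libraries share animals. At Klrb1c the gene body alone, which holds 1 region, turned the log2 difference of the sums to -0.34 between the lung populations and to -0.0030 between lung IFNγ+ and LN cells, and 25 kb on each side turned that between lung IL-4+ and LN cells to -0.044. At Klrc1, where the IL-4+ populations overlap, this last difference was -0.04 with the gene body alone, -0.29 when replicate 1 of the LN cells was left out and -0.09 for replicate 1 of the lung IL-4+ cells. The causes were not tested. Low counts limit the precision of weak regions, such as Klrc1_1 with 3 rebuilt insertions in 1 library.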
